A study of Mus musculus with 8 samples.

Results

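The genes described here are 32 genes of the BRCA, Fanconi and homologous recombination pathways, with the checkpoint kinases that act beside them. They were taken by symbol from a table of 18990 genes, and all 32 were in the table and among the 13866 genes that passed a filter of at least 1 CPM (counts scaled to the depth of the library) on average. The list holds *Brca1*, *Bard1*, *Brip1*, *Palb2* and *Brca2*, *Rad51b*, *Rad51c*, *Rad51d*, *Xrcc2* and *Xrcc3* of the complexes BCDX2 and CX3, the translocases *Rad54l* and *Rad54b*, and 6 genes of end resection and junction processing. It also holds 8 genes of the Fanconi core complex, *Fancd2* and *Fanci*, and *Atm*, *Atr*, *Chek1* and *Topbp1*.

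The study measured RNA in primary mouse embryonic fibroblasts (MEFs) early in reprogramming, after knockdown of *Ncor1*, which encodes a nuclear corepressor, or of *Oct4* (*Pou5f1*). The cells were wild-type BL6 MEFs, transduced with a lentivirus for the doxycycline-inducible STEMCCA cassette (*Oct4*, *Sox2*, *Klf4* and *c-Myc*, or OSKM) and another for rtTA, and reprogrammed at passage 2. They received pools of 3 siRNAs at 40 nM in total, and a day later reprogramming medium with 2 ug/mL doxycycline, LIF, ascorbic acid, a GSK3 inhibitor (chiron) and an Alk5 inhibitor. There were 4 groups of 2 biological replicates each, *siNcor1* and *siOct4* each at days 3 and 6, and libraries of a non-targeting control were not analysed here. All groups therefore shared the cassette, the lentiviruses and the medium, and each difference below compares either the knockdowns or the days.

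Libraries were made from 200 ng of ribosomal RNA-depleted total RNA and held between 7735742 and 16445192 reads on genes. The non-coding gene *Gm26917* took between 15.5% and 29.1% of the reads of a library, most in a library of the *siOct4* group at day 6. *Ncor1* measured 7.08 and 7.20 log2-cpm in *siNcor1* at day 3 and 7.82 and 7.94 in *siOct4*, and it did not differ between them at day 6 beyond the spread (log2 fold change −0.04, adjusted p = 0.815). *Pou5f1* was 7.63 and 7.68 log2-cpm in *siNcor1* and 7.53 and 7.62 in *siOct4* at day 3 (adjusted p = 0.941), and rose to 9.45 and 8.97 in *siOct4* at day 6 against 7.55 and 7.32 in *siNcor1*. The endogenous gene and the cassette cannot be told apart in these values. The knockdown of the targeted gene was thus not visible in the *siOct4*-labelled libraries at either day, nor in *siNcor1* at day 6. The *siOct4*-labelled libraries are named by their label throughout. From separate time course experiments, the paper reports that *Oct4* silencing was efficient but early and transient, and it attributes the recovery to overexpression from the cassette. It describes a strong phenotype even so. All 10 fibroblast markers passed the filter, with a summed level between 2488 and 10315 CPM, whereas the 4 immune markers in the table summed to at most 12.1 CPM and the 5 endothelial markers to at most 44.8 CPM.

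Homologous recombination repairs double-strand breaks with the sister chromatid as the template, and it is used mainly in S and G2 phase. Broken ends are resected to single strands, and BRCA1 with BARD1, PALB2 and BRCA2 then prepares these strands for the search for the template, which the complexes BCDX2 and CX3 and the translocase RAD54 assist. At crosslinks between DNA strands, the Fanconi core complex adds ubiquitin to FANCD2 and FANCI, and homologous recombination completes the repair. Many of these genes are transcribed most strongly in proliferating cells, where E2F factors and CCAAT-binding factors act at the promoters of cell cycle genes.

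Promoter windows of RefSeq (250 bases before the transcription start and 50 after it, GRCm38.p6) were found for 24 of the 32 genes. *Rad51d*, *Xrcc2*, *Rad54b*, *Rad50*, *Nbn*, *Rbbp8*, *Exo1* and *Fancd2* were not matched. The windows were searched on both strands for 4 motifs, none of which contains another. An E2F site, written as TTTCGCGC, TTTGGCGC, TTTCCCGC or TTTGCCGC, was in the windows of 5 of the 24 genes (20.8%), namely *Bard1*, *Brca2*, *Rad51c*, *Fancg* and *Topbp1*, and in those of 2.605% of all 27025 genes with a window. The CCAAT box (CCAAT) was in the windows of 15 of the 24 (62.5%), against 41.1% of all genes. The element CHR, with the letters TTTGAA, was found for *Bard1* and *Rad51b* (8.33%, against 20.2% of all genes). The E-box CACGTG was found for 0 of the 24, against 8.09% of all genes. Of the 10 matched genes that were higher in the *siOct4*-labelled libraries at day 6, 7 held a CCAAT box and 1 an E2F site, and of the other 14, 8 held a CCAAT box and 4 an E2F site. The motifs are descriptions of letters in a window, not of binding.

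The 170 bases before the start are shown for 4 genes that fell from day 3 to day 6 in *siNcor1*, chosen because they hold a motif and no annotated exon. They lie at chr11:101551956-101552125 (*Brca1*, minus strand), chr11:86201194-86201363 (*Brip1*, minus strand), chr5:150522451-150522620 (*Brca2*, plus strand) and chr8:123318577-123318746 (*Fanca*, minus strand) of GRCm38.p6. Each is written 5′ to 3′ along its gene, and capitals mark the motif on either strand, an E2F site in *Brca2* and CCAAT boxes, which read ATTGG on the other strand, in the rest.
Brca1: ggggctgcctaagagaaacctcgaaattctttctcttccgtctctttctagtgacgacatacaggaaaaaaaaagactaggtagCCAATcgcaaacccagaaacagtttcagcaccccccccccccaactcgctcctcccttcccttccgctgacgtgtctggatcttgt
Brip1: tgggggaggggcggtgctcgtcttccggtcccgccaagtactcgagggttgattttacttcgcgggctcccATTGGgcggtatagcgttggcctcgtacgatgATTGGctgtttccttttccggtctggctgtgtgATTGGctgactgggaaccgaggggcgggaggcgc
Brca2: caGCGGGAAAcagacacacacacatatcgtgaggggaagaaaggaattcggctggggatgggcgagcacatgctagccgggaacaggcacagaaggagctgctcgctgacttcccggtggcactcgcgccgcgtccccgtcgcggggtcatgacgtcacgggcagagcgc
Fanca: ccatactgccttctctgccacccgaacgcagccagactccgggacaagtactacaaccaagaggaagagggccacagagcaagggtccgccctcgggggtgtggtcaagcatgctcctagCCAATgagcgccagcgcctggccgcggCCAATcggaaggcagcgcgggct

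*Brca1* held 1 CCAAT box in this stretch, *Brip1* 3 and *Fanca* 2, and *Brca2* held 1 E2F site.

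**Figure D1:**
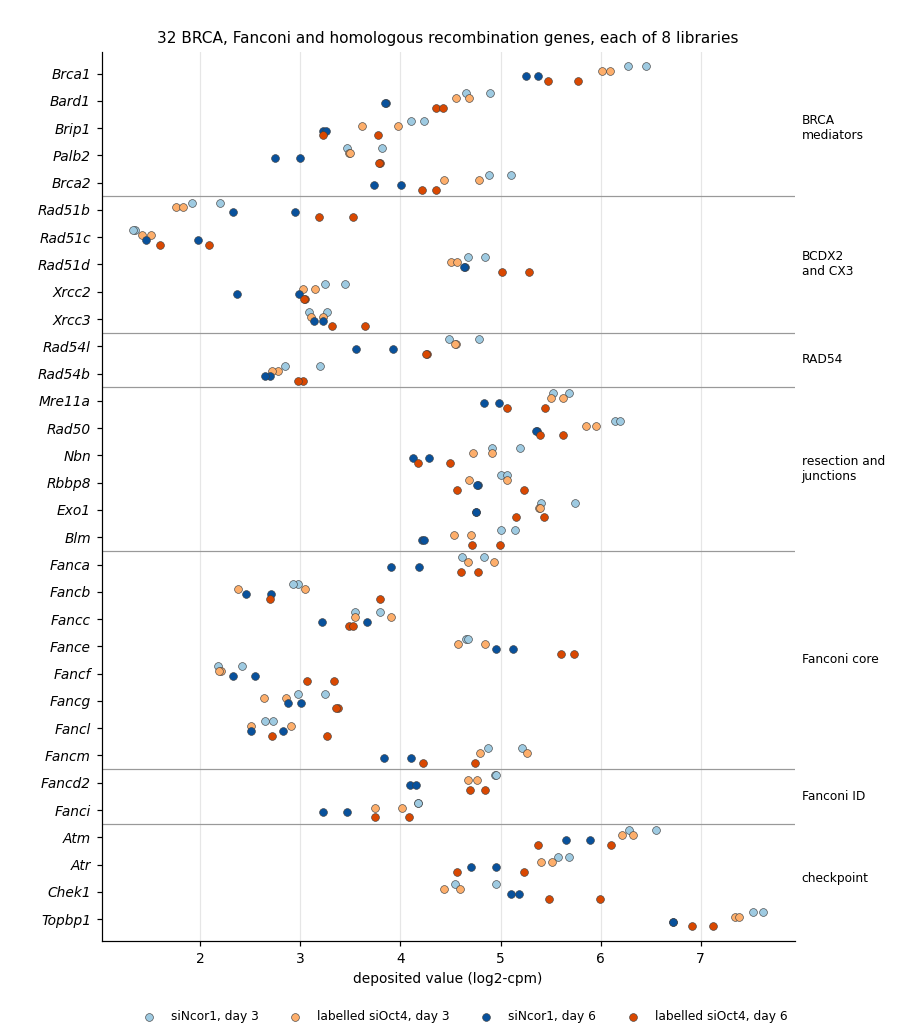
Deposited log2-cpm (x axis) of each of the 32 genes (rows, grouped by role) in each of the 8 libraries (points, coloured by knockdown and day). In rows such as that of *Bard1*, both dark blue points of *siNcor1* at day 6 (3.86 and 3.85) lie to the left of all other points. *Rad51b*, *Fance*, *Fancf* and *Chek1* have their highest points in the *siOct4*-labelled libraries at day 6.

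Per kilobase of summed exon length, the mean level over the 8 libraries ran from 0.668 CPM per kb for *Rad51c* to 13.1 for *Topbp1*, with a median of 2.68. *Topbp1*, whose product activates ATR, was followed by *Fance* (10.6 CPM per kb), *Rad50* (10.1) and *Nbn* (9.87), and the place of *Fance* changed with the group. *Fance* stood above *Rad50* at day 6 in *siNcor1* (10.3 against 7.60) and below it at day 3 (7.92 against 13.3). At day 6 *Fance* also stood above *Topbp1*, at 10.3 against 9.39 in *siNcor1* and 15.9 against 11.5 in *siOct4*. *Brca1* was at 6.97 CPM per kb and *Bard1*, the partner with which it forms a ubiquitin ligase, at 3.84. *Brca2* was at 1.65 and *Palb2*, which bridges BRCA1 and BRCA2, at 1.51. Behind these levels stood between 20 and 3397 reads per gene and library, with a median of 223, so that *Rad51c*, *Rad51b* and *Fancf* carry the most counting error. Exons of 16 of the 32 genes overlap those of another gene, and for 7 of them the overlap is over 10% of the exon length: *Rad54b* (35.9%, mostly with *Fsbp* on the same strand), *Fancc* (18.6%), *Fanci* (16%, with *Polg*), *Rad54l* (15.4%, with *Lrrc41*), *Fancf* (15%, with *Gas2*), *Fancl* (13.7%, with *Vrk2*) and *Fanca* (10.5%, with *Zfp276*). Whether reads were counted by strand is not given in the sources used here, so reads of these neighbours may be part of their values.

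At day 3 the first question was whether the knockdowns differed. Values of 27 of the 32 genes were lower in the *siOct4*-labelled libraries than in *siNcor1*, with a median log2 fold change of −0.20 against −0.021 over all genes tested. With 3 other scalings of the libraries, and with an exon length trend removed, 25 to 29 were lower. None passed the threshold (limma, adjusted p under 0.05), where 0.375% of all genes tested were called higher and 0.692% lower. At an unadjusted p under 0.05 there were 3 of the 32, *Brca1*, *Brca2* and *Blm*, against 1460 of the 13866 genes tested, a similar share. Limma on read counts recovered from the deposited values (voom) also called 0 of the 32 past the adjusted threshold. For 16 genes both *siOct4*-labelled libraries lay below both *siNcor1* libraries, which is 50% of the list, and 22.7% of all genes tested did so. The lowest value was that of *Blm*, a helicase that unwinds recombination intermediates, at −0.45 (standard error 0.15, adjusted p = 0.221). In these bulk samples fewer cells of a type and less RNA per cell cannot be told apart.

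At day 6 the same comparison turned the other way. Of the 32 genes, 13 were higher in the *siOct4*-labelled libraries than in *siNcor1* and 0 were lower (limma, adjusted p under 0.05), while 12.1% of all genes tested were called higher and 18.6% lower. The 13 were *Bard1*, *Palb2*, *Rad51b*, *Rad51d*, *Rad54l*, *Exo1*, *Blm*, *Fanca*, *Fance*, *Fancf*, *Fancd2*, *Fanci* and *Chek1*, with log2 fold changes between 0.51 for *Rad51d* and 0.92 for *Palb2*. Over the list the median was 0.42, against −0.025 over all genes tested, and 31 of 32 values were above 0, the exception being *Atm* at −0.04, and 31 or 32 were with 4 other scalings. Both *siOct4*-labelled libraries lay above both *siNcor1* libraries for 23 genes, or 71.9%, against 29.9% of all genes tested. The count rests on few libraries: it was 1 without replicate 2 of *siNcor1* at day 6, 7 without its replicate 1 and 8 without replicate 2 of the *siOct4* group at day 6, and in each of these fits the lone library is assumed to vary like the other groups. For all 13 genes both *siOct4*-labelled libraries lay above both *siNcor1* libraries, so leaving out 1 library could not change their direction.

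**Figure D2:**
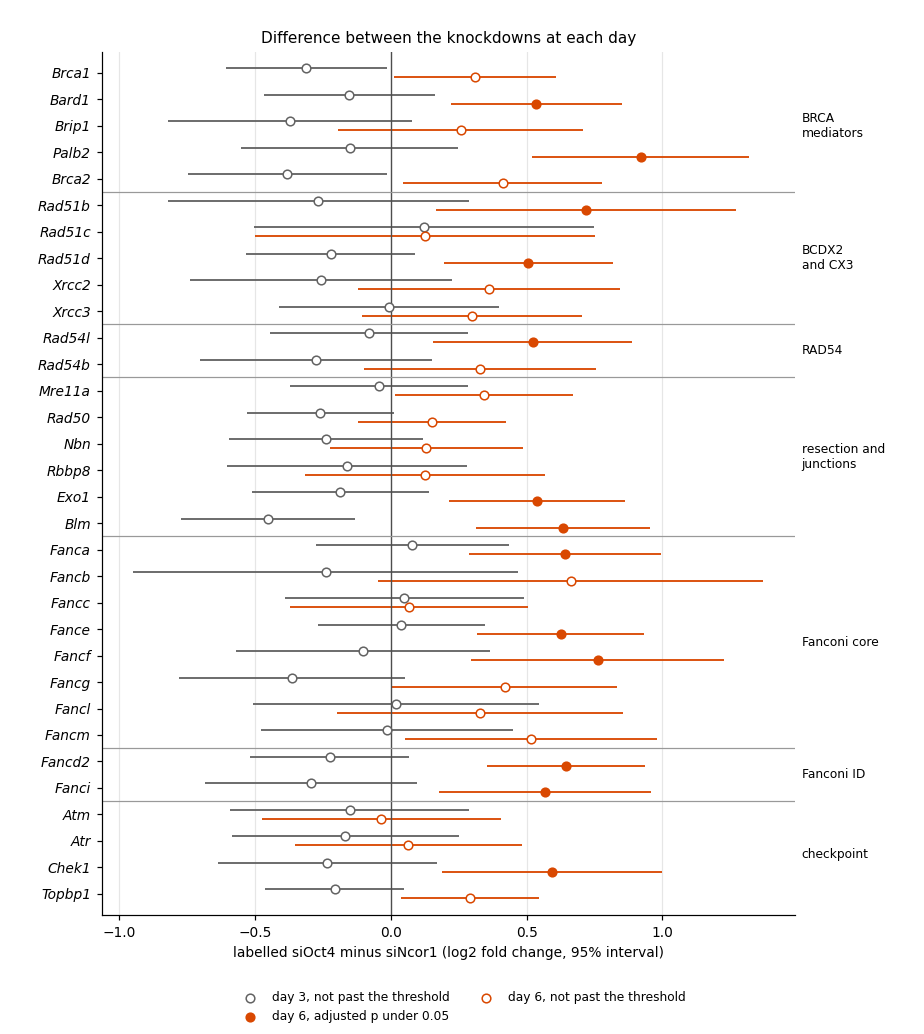
Log2 fold change of the *siOct4*-labelled libraries against *siNcor1* (x axis) at day 3 (grey) and day 6 (orange) for each of the 32 genes, with 95% intervals, and filled points for an adjusted p under 0.05. No grey point is filled, and the 13 filled orange points lie between 0.51 and 0.92.

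From day 3 to day 6, 19 of the 32 genes fell in *siNcor1* and 0 rose (limma, adjusted p under 0.05), where 20.9% of all genes tested were called lower and 13.8% higher. At an unadjusted p under 0.05 there were 21 of the 32, against 6242 of the 13866 genes tested, and of the 21 *Rad51b* and *Fance* were higher. The median log2 fold change was −0.68, against −0.068 over all genes tested, and *Brca2* had the lowest at −1.12. For 23 genes (71.9%) both day 6 libraries lay below both day 3 libraries, against 41.7% of all genes tested. All 5 BRCA mediators and both genes of the FANCD2-FANCI complex were among the 19, with 5 of the 6 resection and junction genes. In contrast, 1 of the 5 genes of BCDX2 and CX3 (*Xrcc2*) and 2 of the 8 core complex genes (*Fanca* and *Fancm*) were called. Without replicate 2 of *siNcor1* at day 3 the count was 12.

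In the *siOct4*-labelled libraries, 6 of the 32 genes rose between the days (18.8%) and 7 fell (21.9%; limma, adjusted p under 0.05). Both shares were below those of all genes tested, of which 22.2% were called higher and 30.5% lower, so the counts do not set the list apart. *Rad51b*, *Rad51d*, *Fance*, *Fancf*, *Fancg* and *Chek1* rose, with log2 fold changes from 0.61 to 1.56. *Brca1*, *Rad50*, *Nbn*, *Fancm*, *Atm*, *Atr* and *Topbp1* fell, with log2 fold changes from −0.57 to −0.35, and the same 7 fell in *siNcor1*. The 6 that rose were called under each of 3 other scalings of the libraries, but the 7 that fell were 4 with each library centred on its median and 0 with quantile normalization or with *Gm26917* left out of the totals, which moved the median of all genes from −0.079 to 0.054. The 13 calls were 5 without replicate 2 and 8 without replicate 1 of the *siOct4* group at day 3, and 7 without replicate 1 of that group at day 6.

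**Figure D3:**
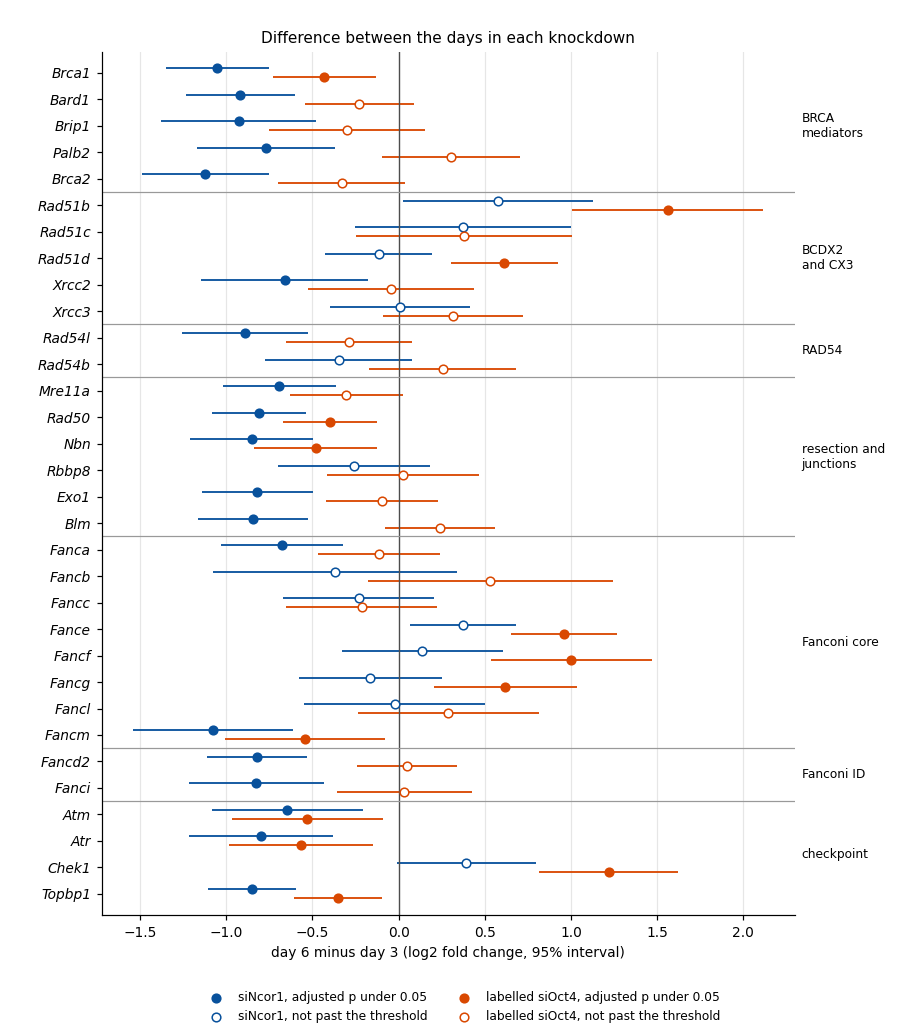
Log2 fold change from day 3 to day 6 (x axis) in *siNcor1* (blue) and in the *siOct4*-labelled libraries (orange) for each of the 32 genes, with 95% intervals, and filled points for an adjusted p under 0.05. Filled blue points are all below 0, from −1.12 to −0.65, and filled orange points lie on both sides, from −0.57 to 1.56.

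Whether the days differed by knockdown was tested with the interaction, the knockdown difference at day 6 less that at day 3, which equals the change over the days in *siOct4* less that in *siNcor1*. It was above 0 for all 32 genes, from 0.0047 for *Rad51c* to 1.08 for *Blm*, and it passed the threshold for 10 of them, all positive (limma, adjusted p under 0.05). All 32 were also above 0 with 3 other scalings and with an exon length trend removed. Of all genes tested, 7.77% were called positive and 12.9% negative, and the median was 0.61 in the list and 0.012 over all genes. The 10 were *Brca1*, *Bard1*, *Palb2*, *Brca2*, *Rad51d*, *Exo1*, *Blm*, *Fancd2*, *Fanci* and *Chek1*. *Brca1* fell in both knockdowns, and the interaction gives a smaller fall in the *siOct4*-labelled libraries. The 12 genes called lower over the days in *siNcor1* and not in *siOct4* were *Bard1*, *Brip1*, *Palb2*, *Brca2*, *Xrcc2*, *Rad54l*, *Mre11a*, *Exo1*, *Blm*, *Fanca*, *Fancd2* and *Fanci*, and the difference passed for 7 of these. Of the 6 called higher in *siOct4* alone, it passed for *Rad51d* and *Chek1*. The 10 calls became 2 without replicate 2 of *siNcor1* at day 3 or at day 6, 3 without either *siOct4* library of day 3, 4 without replicate 1 of *siNcor1* at day 6, and 18 without replicate 1 of the *siOct4* group at day 6. These comparisons share libraries, the *siNcor1* libraries of day 6 being in 3 of the 5, so their calls are not independent of each other.

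Among the mediators, *Brca1* (chromosome 11, 101488764 to 101551955 of mm10, minus strand) measured 6.28 and 6.45 log2-cpm in *siNcor1* at day 3 and 5.37 and 5.25 at day 6. In the *siOct4*-labelled libraries it measured 6.01 and 6.10 at day 3 and 5.47 and 5.78 at day 6. The groups did not overlap at either day, with *siNcor1* the higher at day 3 and the lower at day 6. Between the days it fell by 1.05 on the log2 scale in *siNcor1* (standard error 0.14, adjusted p = 2.3e-04), a fold of 0.482, and by 0.43 in *siOct4* (adjusted p = 0.0189), a fold of 0.741. The knockdown difference was −0.31 at day 3 (adjusted p = 0.439) and 0.31 at day 6 (adjusted p = 0.106), and its change of 0.62 passed the threshold (standard error 0.19, adjusted p = 0.0406). That call was kept in 11 of 20 other analyses, in which the change ranged from 0.47 to 0.77. It was lost without the trend and with no filter, and all other losses came with 1 library left out. The fall in *siOct4* was not called with quantile normalization, with *Gm26917* left out of the totals or with the exon length trend removed.

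*Bard1* (chromosome 1, 71027498 to 71103146, minus strand) was at 4.65 and 4.89 log2-cpm in *siNcor1* at day 3, at 3.86 and 3.85 at day 6, and in the *siOct4*-labelled libraries at 4.56 and 4.68 and then at 4.36 and 4.42. The day 6 libraries of *siNcor1* stood lowest, apart from the other 6. Its log2 fold change between the knockdowns at day 6 was 0.54 (standard error 0.14, adjusted p = 0.0163), and it fell by 0.92 over the days in *siNcor1* (adjusted p = 7.6e-04). *Palb2* (chromosome 7, 122107262 to 122132985, minus strand) had 3.46 and 3.82 log2-cpm in *siNcor1* at day 3 and 3.00 and 2.74 at day 6, against 3.48 and 3.50 and then 3.79 and 3.79 in *siOct4*, so that the *siNcor1* libraries of day 6 were the lowest. It had the largest knockdown difference of the list at day 6, with log2 fold change 0.92 (standard error 0.18, adjusted p = 0.0038) or 1.89-fold. *Brca2*, whose product acts on the resected single strands, went from 4.88 and 5.10 log2-cpm to 3.74 and 4.0 in *siNcor1*, and from 4.44 and 4.79 to 4.21 and 4.35 in *siOct4*. At day 6 the groups of *Brca2* did not overlap, and the difference of 0.41 missed the threshold (adjusted p = 0.085), although the interaction of 0.79 passed it (adjusted p = 0.0363). *Brip1*, a helicase that binds BRCA1, fell by 0.93 in *siNcor1* (adjusted p = 0.0051) and its groups overlapped at day 6.

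The genes of BCDX2 and CX3, complexes that assist recombination on resected DNA, differed from gene to gene. *Rad51b* (chromosome 12, 79297282 to 79814690, plus strand) had 1.92 and 2.20 log2-cpm in *siNcor1* at day 3 and 2.95 and 2.33 at day 6, and 1.76 and 1.83 and then 3.19 and 3.52 in the *siOct4*-labelled libraries. Its day 6 libraries stood above its day 3 libraries in both knockdowns. It rose by 1.56 on the log2 scale in *siOct4* (standard error 0.25, adjusted p = 3.3e-04), or 2.95-fold, the largest change over the days in the list. The knockdown difference at day 6 was 0.72 with an adjusted p of 0.0499, and that call was lost in 10 of 19 other analyses. *Rad51d* had 4.67 and 4.84 log2-cpm in *siNcor1* at day 3 and 4.65 and 4.64 at day 6, against 4.50 and 4.57 and then 5.28 and 5.01 in *siOct4*. Only the *siOct4* libraries of day 6 stood apart, above the other 6, and *Rad51d* rose there by 0.61 (adjusted p = 0.0034). *Xrcc2* fell by 0.66 in *siNcor1* (adjusted p = 0.0364), and that call was kept in 12 of 19 other analyses. Among the losses were the fit without the trend, *Gm26917* left out of the totals and removal of the exon length trend. *Rad51c*, at 1.33 to 2.09 log2-cpm, and *Xrcc3*, at 3.09 to 3.65, passed no test, and the 95% interval of the knockdown difference at day 6 was −0.50 to 0.75 for *Rad51c* and −0.11 to 0.70 for *Xrcc3*.

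Of the translocases, which move along DNA and help the strand to pair with its template, *Rad54l* had 4.48 and 4.78 log2-cpm in *siNcor1* at day 3 and 3.92 and 3.55 at day 6, and 4.56 and 4.54 and then 4.27 and 4.25 in the *siOct4*-labelled libraries. The day 6 libraries of *siNcor1* were again the lowest of the 8. It was 1.44-fold higher in *siOct4* at day 6 (log2 fold change 0.52, standard error 0.17, adjusted p = 0.0347). *Rad54b* ran from 2.65 to 3.2 log2-cpm and passed no test.

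The resection and junction genes encode the complex that starts resection with its cofactor, and enzymes that extend resection or act on junctions. *Exo1*, a nuclease of long-range resection, measured 5.40 and 5.74 log2-cpm in *siNcor1* at day 3 and 4.75 and 4.75 at day 6, and 5.38 and 5.39 and then 5.15 and 5.43 in the *siOct4*-labelled libraries. *Blm* (chromosome 7, 80454733 to 80535119, minus strand) measured 5.0 and 5.14 and then 4.21 and 4.24 in *siNcor1*, and 4.70 and 4.53 and then 4.72 and 5.0 in *siOct4*. For both genes the *siNcor1* libraries of day 6 were the lowest of the 8. At day 6 *Exo1* differed by 0.54 (adjusted p = 0.0181) and *Blm* by 0.63 (adjusted p = 0.0082), and the interaction of *Blm*, 1.08 (standard error 0.21, adjusted p = 0.0046), was the largest of the list and was called in all 20 other analyses. *Mre11a*, *Rad50* and *Nbn* encode the complex that binds broken ends and begins to trim them. They fell together in *siNcor1*, by 0.69, 0.81 and 0.85 on the log2 scale (adjusted p between 6.5e-04 and 0.0045), and at day 6 their knockdown differences of 0.34, 0.15 and 0.13 missed the threshold. *Rbbp8*, which encodes CtIP, their cofactor, ranged from 4.56 to 5.24 log2-cpm and passed no test.

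In the Fanconi core complex, which acts as a ubiquitin ligase, 3 of 8 genes were higher in the *siOct4*-labelled libraries at day 6. *Fance* had 4.66 and 4.68 log2-cpm in *siNcor1* at day 3 and 5.13 and 4.96 at day 6, against 4.84 and 4.57 and then 5.73 and 5.60 in *siOct4*. *Fancf* had 2.18 and 2.42 and then 2.32 and 2.55 in *siNcor1*, and 2.20 and 2.19 and then 3.33 and 3.07 in *siOct4*. In these adaptor subunits, the *siOct4* libraries of day 6 were the highest of the 8. *Fance* was 1.95-fold higher at day 6 than at day 3 in *siOct4* (adjusted p = 1.6e-04) and *Fancf* 2.00-fold (adjusted p = 0.0020). *Fanca* had 4.61 and 4.84 and then 4.19 and 3.91 log2-cpm in *siNcor1*, and 4.67 and 4.94 and then 4.77 and 4.61 in *siOct4*, so that here the *siNcor1* libraries of day 6 stood apart, at the low end. Its difference at day 6 was 0.64 (standard error 0.16, adjusted p = 0.0122). *Fancm*, the translocase that anchors the complex on DNA, fell in both knockdowns, by 1.08 in *siNcor1* (adjusted p = 0.0027) and by a smaller 0.55 in *siOct4* (adjusted p = 0.0478). The smaller fall was not called under any of 3 other scalings of the libraries. *Fancg* rose by 0.62 in *siOct4* (adjusted p = 0.0162). *Fancl*, the ligase subunit, *Fancb* and *Fancc* passed no test, with values of 2.51 to 3.27, 2.38 to 3.80 and 3.22 to 3.90 log2-cpm, and the 95% interval of *Fancb* at day 6, −0.05 to 1.37, was the widest of the list.

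*Fancd2* (chromosome 6, 113531682 to 113597017, plus strand) and *Fanci* (chromosome 7, 79391929 to 79450264, plus strand) encode the pair of proteins that the core complex modifies. *Fancd2* had 4.94 and 4.95 log2-cpm in *siNcor1* at day 3 and 4.10 and 4.15 at day 6, and 4.68 and 4.77 and then 4.70 and 4.85 in the *siOct4*-labelled libraries. *Fanci* had 4.18 and 4.17 and then 3.23 and 3.47 in *siNcor1*, and 3.75 and 4.02 and then 3.75 and 4.08 in *siOct4*. In *siNcor1* the day 6 libraries of both genes lay below all 6 others. *Fancd2* fell there by 0.82 (adjusted p = 8.9e-04) and *Fanci* by 0.83 (adjusted p = 0.0045), whereas in *siOct4* their 95% intervals over the days were −0.24 to 0.34 and −0.36 to 0.42. The knockdown difference of *Fancd2* at day 6, 0.65 (standard error 0.13, adjusted p = 0.0046), was called in all 20 other analyses, as was its interaction of 0.87 (adjusted p = 0.0087).

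The checkpoint genes divided by member. *Atm* and *Atr*, the kinases that sense double-strand breaks and stalled forks, fell in both knockdowns, *Atm* by 0.65 and 0.53 and *Atr* by 0.80 and 0.57 on the log2 scale in *siNcor1* and *siOct4*, and at day 6 their knockdown differences were −0.04 and 0.06. *Topbp1* fell by 0.85 in *siNcor1* (adjusted p = 3.3e-04), and in *siOct4* by 0.35 (adjusted p = 0.0237). In *siOct4*, the falls of *Atm*, *Atr* and *Topbp1* were not called with quantile normalization or with *Gm26917* left out of the totals. The fall of *Atm* in *siNcor1* was not called with quantile normalization either, and it was called in 13 of 20 other analyses. In *siOct4* the falls were called in 6 of 20 for *Atm*, 12 for *Atr* and 11 for *Topbp1*. *Chek1* (chromosome 9, 36708482 to 36727065, minus strand) encodes the kinase that ATR activates, and it measured 4.54 and 4.96 log2-cpm in *siNcor1* at day 3 and 5.18 and 5.11 at day 6, and 4.60 and 4.44 and then 5.48 and 5.99 in the *siOct4*-labelled libraries. Unlike its activators, *Chek1* had its highest values at day 6 in both knockdowns. It rose by 1.22 in *siOct4* (standard error 0.19, adjusted p = 2.1e-04), or 2.33-fold, and its difference at day 6 was 0.59 (adjusted p = 0.0310).

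The other genes of the same pathways were read from further lists. Of 39 tested genes of homologous recombination and the Fanconi pathway outside the 32, 14 were higher and 0 lower in the *siOct4*-labelled libraries at day 6, with a median log2 fold change of 0.36. They included *Rad51ap1*, a cofactor of homologous recombination, at 1.16 (adjusted p = 6.5e-04), *Faap24*, a partner of FANCM, at 1.03 (adjusted p = 0.0036), and *Ube2t*, the ubiquitin-conjugating enzyme of the core complex, at 0.77 (adjusted p = 0.0293). Among 16 other checkpoint and damage signalling genes, 3 were higher at day 6, *Tipin*, *Rad9a* and *Chek2*, with log2 fold changes from 0.49 to 0.55, and 0 were lower. Among 10 genes of end joining, the repair that uses no template, *Polq* (0.71) and *Xrcc6* (0.68) were higher and 0 were lower. The shares called higher at day 6 were 35.9%, 18.8% and 20% of these lists, against 12.1% of all genes tested. Of all genes tested, 18.6% were called lower. Over the days in *siNcor1*, 9 of the 39 (23.1%), 7 of the 16 (43.8%) and 4 of the 10 fell, against 20.9% of all genes tested, and 3, 0 and 1 rose, against 13.8%. In *siOct4* the numbers that fell were 4, 4 and 2, each a smaller share than the 30.5% of all genes, and 12 (30.8%), 1 and 2 rose, against 22.2%. The share of the 39 that fell in *siNcor1* was thus near that of all genes.

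Cell cycle genes moved with the list. At day 6, 68% of S phase and 40% of G2/M genes were called higher in *siOct4*, against 12.1% of all genes tested. Of 25 S phase genes, 17 were higher and 0 lower in the *siOct4*-labelled libraries at day 6 (median log2 fold change 0.62), among them *Ccne2* at 0.91, *Chaf1b* and *Uhrf1* at 0.82, and *Pcna*, the replication clamp, at 0.76. *Mcm2*, a subunit of the replicative helicase, was at 0.37 and missed the threshold (adjusted p = 0.0694). Of 20 G2/M genes, 8 were higher and 0 lower, among them *Cdc20* at 0.75, *Nusap1* at 0.71 and *Bub1b* at 0.67, whereas *Mki67* (0.02) and *Top2a* (0.07), which mark proliferating cells, did not pass. Over the days in *siNcor1*, 13 S phase (52%) and 14 G2/M genes (70%) fell, against 20.9% of all genes tested, and 0 rose. *Mki67* fell by 1.39 and *Top2a* by 0.93. In *siOct4*, 11 S phase genes rose (44%) and 3 fell (12%), and 4 G2/M genes rose (20%) and 7 fell (35%). Of all genes tested, 22.2% rose and 30.5% fell there, so the G2/M shares were near those of all genes. *Mki67* fell by 1.24 in *siOct4*. The interaction was above 0 for all 25 S phase and all 20 G2/M genes. It passed the threshold for 10 (40%) and 8 (40%) of them, all positive, against 7.77% of all genes tested.

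The summed level of the 32 genes was 989 and 1113 CPM in *siNcor1* at day 3, 909 and 934 in the *siOct4*-labelled libraries at day 3, 666 and 671 in *siNcor1* at day 6, and 793 and 951 in *siOct4* at day 6. The S phase genes summed to between 2094 and 2528 CPM at day 3, to 1656 and 1509 in *siNcor1* at day 6 and to 2235 and 2333 in *siOct4* at day 6. The G2/M genes summed to between 2060 and 2527 CPM at day 3, to 1395 and 1332 in *siNcor1* at day 6 and to 1592 and 1909 in *siOct4* at day 6. In all 3 lists the *siNcor1* libraries of day 6 were the lowest of the 8. The part of the cell cycle in the results on the 32 genes was not tested.

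**Figure D4:**
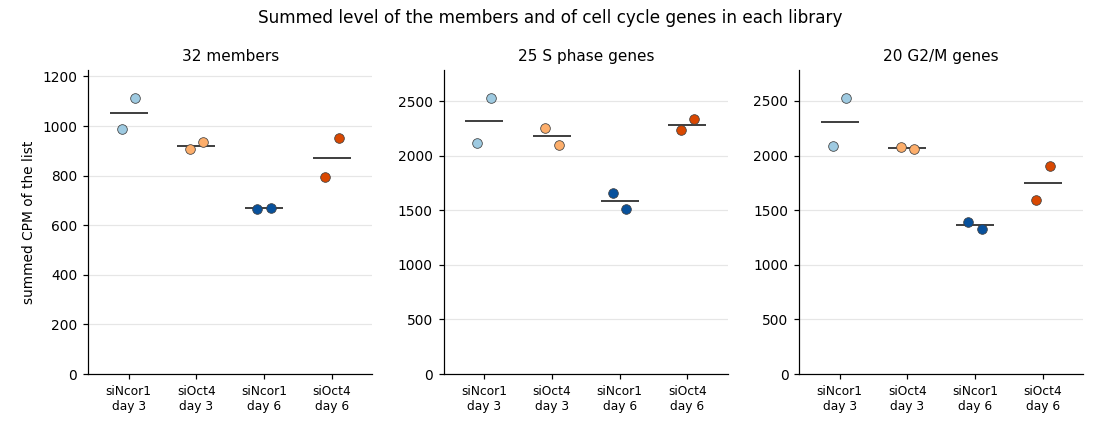
Summed CPM (y axis, from 0) of the 32 genes, of 25 S phase genes and of 20 G2/M genes in each library (points) by knockdown and day (x axis), with bars at the group means. The lowest points of each panel are those of *siNcor1* at day 6, at 666 and 671 CPM for the 32 genes.

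Other lists moved at day 6 as well, where 12.1% of all genes tested were called higher and 18.6% lower. Of the 10 fibroblast markers, 8 were lower and 0 higher in the *siOct4*-labelled libraries (summed 2488 to 2657 CPM against 4527 to 4909 in *siNcor1*), and none is at 0. The 4 cassette genes, *Pou5f1*, *Sox2*, *Klf4* and *Myc*, were higher there by 3.42-, 3.10-, 3.19- and 3.01-fold. Of 12 p53 targets, 2 were higher (16.7%) and 4 lower (33.3%), among them *Cdkn1a*, which encodes the inhibitor p21, at −0.49. Of 6 tested pluripotency and epithelial markers, 2 were lower and 0 higher (summed 191 to 206 CPM against 325 to 341). The immune markers summed to 10.0 to 10.4 CPM in *siOct4* and 11.2 to 12.1 in *siNcor1*, and the endothelial markers to 17.5 to 18.3 and 17.0 to 21.9. The part of these lists in the results on the 32 genes was not tested.

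Exon length also moved with the change over the days. The 32 genes were longer than most, with a median summed exon length of 5854.5 bases against 4362.5 over the genes tested. Across the 32 genes, Spearman's rho between exon length and the log2 fold change over the days was −0.57 in *siNcor1* and −0.65 in *siOct4*, and across 13856 genes tested it was −0.33 and −0.38. It is a description across genes of the same libraries, which are not independent replicates. For the knockdown difference at day 6, rho was −0.27 in the list and −0.23 over all genes. The 6 genes that rose in *siOct4* have between 1691 and 4635 bases of exon, and of the 7 that fell, *Nbn* has 2533, *Rad50* 5375 and the other 5 between 8533 and 23629. With the length trend taken out of each library, an analysis chosen after seeing the data, 17 genes were higher at day 6 and 12 passed the interaction, all positive. In *siNcor1* the 19 that fell became 15, and in *siOct4* 10 rose and 1 fell. Of all genes in that analysis, 30.8% were called at day 6, 44.0% of them higher. The interaction was called for 22.1%, of which 40.3% were positive. Over the days, 29.9% of all genes were called in *siNcor1* and 47.6% in *siOct4*, of which 50.3% and 49.5% were higher.

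**Figure D5:**
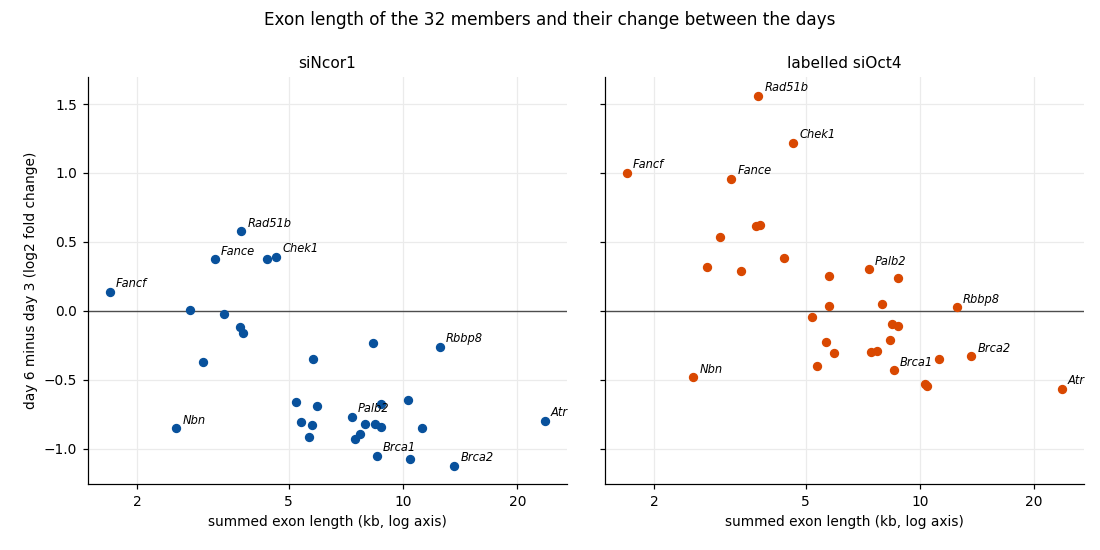
Summed exon length in kb (x axis, log scale) and log2 fold change from day 3 to day 6 (y axis) of the 32 genes (points) in *siNcor1* and in the *siOct4*-labelled libraries. The short genes *Fancf*, *Fance*, *Rad51b* and *Chek1* lie above 0 in both panels, and the long genes *Brca1*, *Brca2* and *Atr* below 0.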

How the data were processed

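RNA was measured in 8 libraries of 4 groups, with 2 biological replicates in each. Per the submitters' processing notes the authors used STAR 2.5.2b, edgeR 3.20.9 and mm10, and the authors deposited log2-cpm values, a log2 scale on which −2.87 stands for 0 reads. How reads were counted on genes is not given in the sources used here. After removal of the added constant, 100% of the values checked were whole reads within a tolerance of 0.1. Values with the highest numbers of reads were not part of that check. At 3 reads a gene stands at 0.174 to 0.380 CPM, so folds of low genes are understated on this scale and carry counting error. Replicates differed beyond counting noise, with a chi-square of 9.38 to 22.0 per degree of freedom.

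Genes averaging 1 CPM or more (13866) were tested with limma 3.58.1 in R 4.3.3 (lmFit, eBayes with a trend), the 4 groups fitted together, two-sided, with Benjamini-Hochberg adjustment at 0.05 over all genes. With 2 against 2 libraries, an exact permutation test of 1 gene cannot go below p = 0.333 and was not used. The study calls the replicates biological, what was repeated is not given in the sources used here, and p-values measure the spread between these libraries. Coordinates and exon lengths came from GENCODE M21, and 18969 of 18990 genes were matched.

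The members and lists were chosen with earlier results of these data known. All 32 members are accounted for by role. The value in every library is given for those past the threshold between the knockdowns or in the interaction, and for *Brca1* and *Bard1*. From each further list the text names up to 3 genes with the largest called change, and *Mki67*, *Top2a*, *Pcna*, *Mcm2* and the targeted and cassette genes; 1 further gene that the rule names is counted in its list and not reported here. Alternatives were a fit without the trend, 3 scalings, 2 filters, pseudocounts of 0.1 and 1, a replicate block, only the groups compared, voom, and leaving out each library. Removal of the exon length trend was added after seeing the data. The script was tested on simulated reads. Figures were drawn with matplotlib 3.10.9.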

Additional observations from a re-analysis of the deposited data

Results flagged for a closer look

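For 10 of the 32 genes the knockdown difference changed between the days by the interaction test of limma (adjusted p under 0.05), and these are the results listed for a closer look. In log2 units, the difference of the *siOct4*-labelled libraries from *siNcor1* at day 6 less that at day 3 was 0.62 for *Brca1*, 0.69 for *Bard1*, 1.07 for *Palb2*, 0.79 for *Brca2* and 0.73 for *Rad51d*. It was 0.72 for *Exo1*, 1.08 for *Blm*, 0.87 for *Fancd2*, 0.86 for *Fanci* and 0.83 for *Chek1*. *Blm* and *Fancd2* passed the test in all 20 other analyses.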

How the results depend on the processing

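The count of the 32 genes called at day 3 was 0 in every alternative run. At day 6 it was 13, and 8 without the trend, 9 with only the groups compared, and between 1 and 15 when 1 library was left out. Over the days in *siNcor1* the calls were 19, all lower, and between 12 and 21 when 1 library was left out, of which 12 to 19 were lower and at most 2 higher. The 13 calls over the days in *siOct4* became 8 without the trend, 6 with quantile normalization, 7 without *Gm26917* in the totals, 7 with only the groups compared, and between 5 and 15 when 1 library was left out. The interaction was called for 10, for 4 without the trend, and for between 2 and 18 when 1 library was left out. With the exon length trend removed, *Atr* and *Topbp1*, which fell over the days in *siOct4*, were at 0.14 and 0.13 there and passed no test. The cause of these shifts was not tested. Over the log2 fold changes of named genes, 634 of 702 values from alternatives with all 8 libraries kept their side of the threshold and their direction, 64 missed the threshold, 2 newly passed it and 2 changed sign. With 1 library left out, these were 349, 122, 1 and 0 of 472. With the replicate number as a replicate block, the counts were 0 at day 3, 15 at day 6, 20 in *siNcor1*, 13 in *siOct4* and 12 for the interaction. Same-numbered libraries deviated together with correlations between −0.040 and 0.281, the highest between *siNcor1* and *siOct4* at day 6. Whether equal numbers mark a shared culture or batch is not given in the sources used here and cannot be told from these correlations. Over all genes, the share of higher genes among those called over the days in *siOct4* was 42.1%, and 52.6% without *Gm26917* in the totals. The precision of every value rests on 2 libraries a group, and at 20 to 97 reads per library *Rad51c* and *Fancf* are limited by counting as well.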
